A study of Mus musculus with 6 samples.

Results

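The neurotrophins and their receptors were followed in the cerebral cortex of male senescence-accelerated mice through 6 genes, the ligand genes *Bdnf* and *Ntf3*, the Trk receptor genes *Ntrk2* and *Ntrk3*, the p75 receptor gene *Ngfr*, and *Sort1*, which encodes the sorting receptor sortilin. The genes were chosen by symbol, and every probe set carrying 1 of these symbols was kept, which gave 25 of the 45077 probe sets on the array for 6 of 21571 gene symbol entries. Each probe set pools the signal of short probes to the same transcript, and *Ntrk2* had 8 of them, *Ntrk3* had 7, *Ngfr* and *Sort1* had 3 each, and *Bdnf* and *Ntf3* had 2 each. None of the 25 carried a second symbol.

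Per the labels, the mice were 16 weeks of age. The methods state this age ahead of acclimatization, administration and behavioral tests, so the cortex was collected at a later age. SAMP8, a strain that ages early and loses spatial memory, received either water (SAMP8 + Water, called SAMP8 control) or STEE, an ethanolic extract of sugarcane tops, at 20 mg/kg by mouth (SAMP8 + STEE, called STEE-fed SAMP8), and SAMR1, the related strain that ages normally, received water (SAMR1 + Water). Administration lasted 30 days and went on through 8 days of behavioral tests, and the methods also describe the thymidine analog BrdU in the drinking water of the mice. SAMP8 and SAMR1 differ in genetic background as well as in aging, so a difference between the strains cannot be assigned to aging. RNA from 6 mice, 2 in each group, was measured on Affymetrix arrays, and the values here are the deposited mean log2 signals of each group. No value of a single mouse was used, so the spread between mice is not known, no test was made, and every difference is a description of these group means.

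Neurotrophins are secreted growth factors that keep neurons alive and adjust their synapses. They are made as proneurotrophins and cut to mature ligands, and the mature forms bind Trk receptor tyrosine kinases: BDNF binds TrkB, the product of *Ntrk2*, and NT-3, the product of *Ntf3*, binds mainly TrkC, the product of *Ntrk3*. Trk receptors signal through Ras and ERK, PI3K and Akt, and phospholipase C-gamma. Uncut proneurotrophins bind p75 together with sortilin. TrkB and TrkC occur as full-length kinases and as truncated forms, and in the adult cortex truncated TrkB is abundant in astrocytes. In bulk tissue, fewer cells of a type and less RNA per cell cannot be told apart.

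Across the 25 probe sets, differences were mostly small. In SAMP8 control minus SAMR1, 2 of the 25 were at least 1.2-fold apart, a *Bdnf* probe set that was higher and an *Ntrk2* probe set that was lower, beside 7.11% of all probe sets and 11.6% of the probe sets above the array median. In STEE-fed SAMP8 minus SAMP8 control the count was 1, an *Ntrk3* probe set that was higher, beside 2.01% of all probe sets and 3.06% of those above the median. In STEE-fed SAMP8 minus SAMR1 it was 6, of which 4 were higher and 2 lower, beside 7.85% of all and 13.1% of those above the median. These came from *Ntrk2*, with 3 higher and 2 lower, and *Bdnf*, with 1 higher, and from no other member gene. The array median, taken over the mean log2 signal of each probe set, was 4.15, and 17 of the 25 member probe sets lay above it. All member probe sets counted in these comparisons were among the 17. They made up 8.0%, 4.0% and 24.0% of the 25 in the order given. Of the 17, to be set beside the shares above the median, they made up 11.8%, 5.9% and 35.3%. The comparisons share groups with each other, so their counts are not independent.

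At a limit of 1.1-fold, 12 of the 25 were apart in SAMP8 control minus SAMR1, 9 in STEE-fed SAMP8 minus SAMP8 control and 11 in STEE-fed SAMP8 minus SAMR1, beside 25.9%, 16.2% and 27.6% of all probe sets. At 1.5-fold the counts were 0, 0 and 1, beside 0.876%, 0.0799% and 1.02%. The median absolute log2 difference of the 25 was 0.13, 0.07 and 0.10 in these comparisons, and that of all probe sets was 0.07, 0.06 and 0.08.

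**Figure D1:**
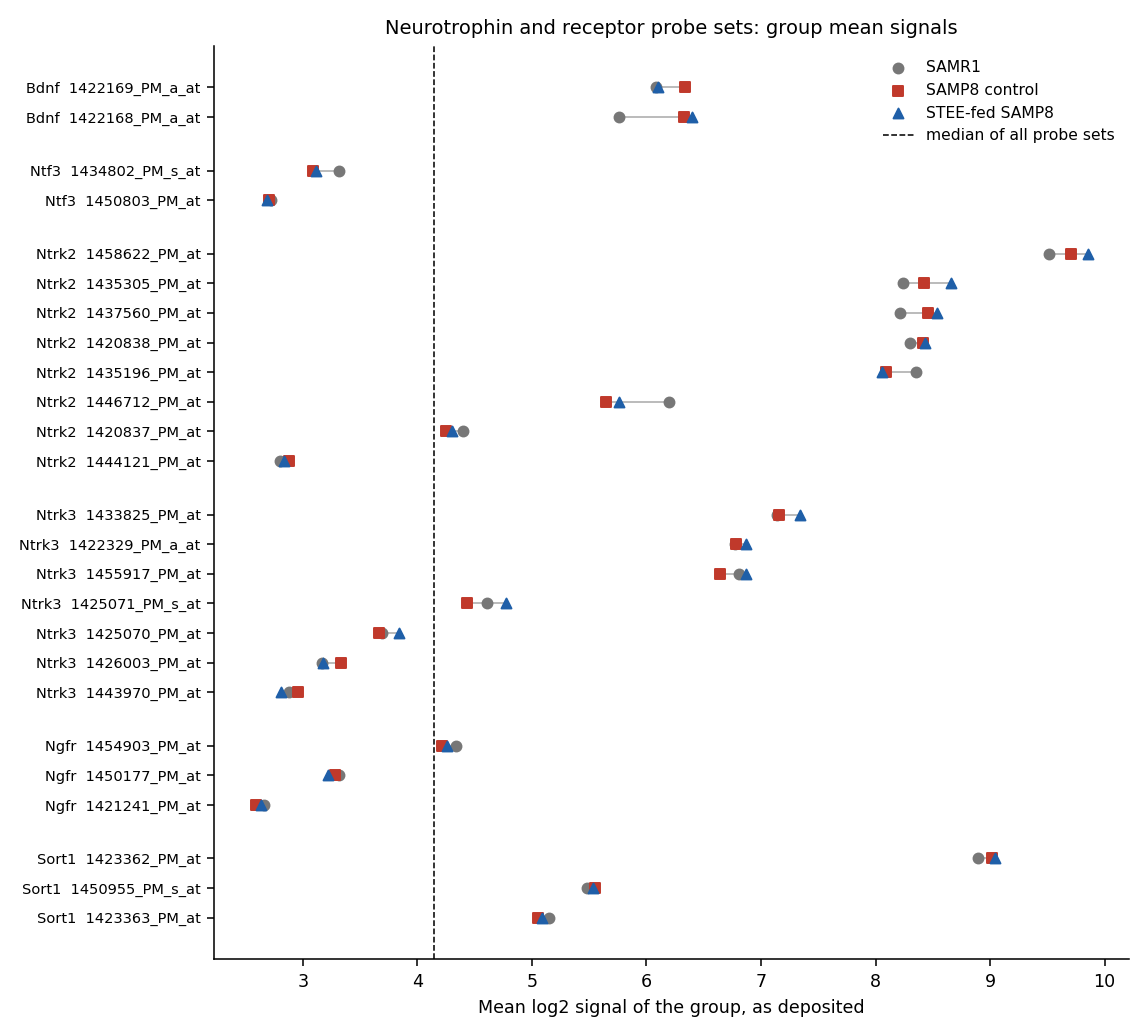
Deposited mean log2 signal of each group (x axis) for the 25 probe sets of the 6 genes (y axis), with the dashed line at the array median of 4.15. Levels of different probe sets cannot be set against each other, and within a row the groups lie at most 0.64 apart, in a Bdnf probe set.

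*Bdnf* encodes the ligand of TrkB, whose transcription in cortical neurons follows synaptic activity. At probe set 1422168_PM_a_at, the mean log2 signal was 5.76 in SAMR1, against 6.33 in SAMP8 control and 6.40 with STEE. At probe set 1422169_PM_a_at, it was 6.08 in SAMR1, against 6.34 in SAMP8 control and 6.10 with STEE. Both were therefore lowest in SAMR1 and higher in SAMP8 control, but they parted with STEE, which left the former high and the latter near its SAMR1 level.

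On the log2 scale, SAMP8 control exceeded SAMR1 by 0.57, or 1.49-fold, at 1422168_PM_a_at. That absolute difference was larger than those of 98.4% of the probe sets above the array median. At 1422169_PM_a_at the difference was 0.26, or 1.197-fold, which falls short of the 1.2-fold limit of 0.263 by less than the rounding of the deposited means. Between STEE-fed SAMP8 and SAMP8 control the same probe sets differed by 0.07 and -0.24. No direction can be given for *Bdnf* with STEE, since it depended on the probe set, while both of them placed SAMP8 control above SAMR1. STEE-fed SAMP8 minus SAMR1 was 0.64 and 0.02. Both probe sets were designed from the same transcript cluster according to the array's own column, and both signals lay near the 76th percentile of all probe sets.

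*Bdnf* is transcribed from several start sites, and the RefSeq table of GRCm38.p6 held 7 windows for it. The core of the cAMP response element, ACGTCA, which the factor CREB binds, was searched for on both strands (TGACGT on the other) in the 250 bases before each start. It was found in 1 of the 7 *Bdnf* windows, beside 6.47% of all 32851 windows, and in neither of the *Ntf3* windows nor in the single windows of *Ngfr* and *Ntrk2*. The window that holds it, chr2:109692186-109692435 on the plus strand, is shown because calcium acting through CREB at such an element is a known route to *Bdnf* transcription. The capitals mark the motif, whose first base lies at position -36 from the start.

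Bdnf start window: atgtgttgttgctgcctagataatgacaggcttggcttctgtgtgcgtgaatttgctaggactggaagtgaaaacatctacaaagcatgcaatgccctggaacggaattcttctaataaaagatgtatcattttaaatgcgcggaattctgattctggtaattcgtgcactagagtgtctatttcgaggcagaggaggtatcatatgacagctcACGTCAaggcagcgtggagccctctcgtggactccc

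Array probe sets read the transcript and not its start, so these data do not tell which *Bdnf* start was in use, and a motif match is a description of sequence.

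The transcription factors and genes that act around *Bdnf* were taken as lists fixed by symbol, each gene at its brightest probe set. Of 14 genes that control *Bdnf* transcription, 2 were at least 1.2-fold higher and 2 lower in SAMP8 control than in SAMR1, against 3.30% higher and 3.19% lower of all 20750 genes with a single symbol. *Bhlhe40*, a repressor of the bHLH family, was 8.31 in SAMR1, against 8.70 in SAMP8 control and 8.29 with STEE. *Srf*, a factor that drives activity-dependent genes, was 6.11, 6.49 and 6.17 in the same order. Both were thus highest in SAMP8 control. *Rest*, a repressor of neuronal genes, was 4.77, 4.48 and 4.36, and *Usf1*, an E-box factor, was 5.41, 5.13 and 4.89. At these brightest probe sets both were lowest in STEE-fed SAMP8. Over all their probe sets, 2 of 4 for *Rest* and 2 of 3 for *Usf1* were instead higher with STEE than in SAMP8 control. *Creb1* was 7.75, 7.89 and 7.81, and *Npas4*, an activity-induced regulator of *Bdnf*, was 5.31, 5.30 and 5.24. With STEE, 0 of the 14 were at least 1.2-fold higher and 2 were lower, *Bhlhe40* and *Srf*, against 0.988% higher and 0.959% lower of all genes. In STEE-fed SAMP8 minus SAMR1, 0 were higher and 2 lower, *Rest* and *Usf1*, against 4.10% and 2.91% of all genes.

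Genes listed as induced by neuronal activity or TrkB signaling formed the pathway list with the most differences. Membership was by symbol, and the list holds neuropeptide genes such as *Npy* and *Tac1*, so a difference in it does not show induction. Of 18, 12 were at least 1.2-fold higher and 0 lower in SAMP8 control than in SAMR1, against 3.30% higher and 3.19% lower of all genes. The median log2 difference was 0.38. The 3 with the largest difference were *Crh*, a neuropeptide gene, at 0.80, *Arc*, a postsynaptic effector, at 0.72, and *Egr3*, an immediate-early factor, at 0.61. Of the 2 *Egr3* probe sets, only 1 was higher in this comparison. In STEE-fed SAMP8 minus SAMP8 control, 7 were lower and 1 was higher, against 0.959% and 0.988% of all genes, with a median of -0.10. *Egr2* differed by -1.23, *Fos* by -1.20 and *Arc* by -1.13, and the gene that was higher was *Crh*, by 0.31. In STEE-fed SAMP8 minus SAMR1, 7 were higher and 5 lower, against 4.10% and 2.91% of all genes, from -1.05 for *Fos* to 1.11 for *Crh*. Members of the list therefore differed in opposite directions within this comparison. SAMP8 control enters both of the other comparisons. A high value in that group raises SAMP8 control minus SAMR1 and lowers STEE-fed SAMP8 minus SAMP8 control. In SAMR1, SAMP8 control and STEE-fed SAMP8, *Fos* was 8.51, 8.66 and 7.46, *Egr2* was 5.38, 5.77 and 4.54, and *Arc* was 7.64, 8.36 and 7.23. These 3 genes were lowest with STEE, below SAMR1 as well.

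**Figure D2:**
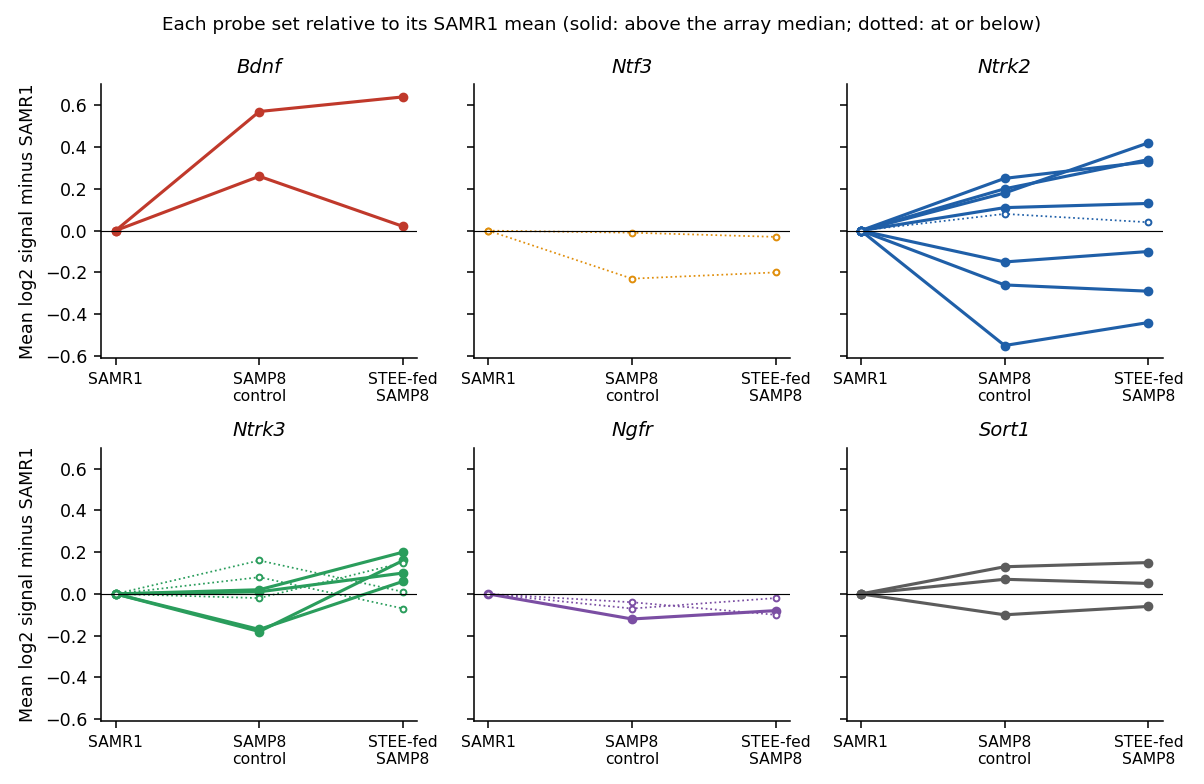
Mean log2 signal of each group minus that of SAMR1 (y axis) in the 3 groups (x axis), with a line for each probe set, solid above the array median and dotted at or below it. Ntrk2 lines fan out to both sides of 0, from -0.55 to 0.25 in SAMP8 control, while the 4 solid Ntrk3 lines all end higher with STEE than in SAMP8 control.

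*Ntf3* encodes NT-3, the ligand of TrkC, and was dim on these arrays. Its brighter probe set, 1434802_PM_s_at, was 3.32 in SAMR1, against 3.09 in SAMP8 control and 3.12 with STEE, and the other, 1450803_PM_at, was 2.72, 2.71 and 2.69. They lay at percentiles 24.8 and 7.8 of all signals, and the difference of -0.23 between SAMP8 control and SAMR1 was seen at the former alone. *Ntf5*, which encodes NT-4, another ligand of TrkB, was 3.15, 3.18 and 3.17 and differed by no more than 0.03 in any comparison.

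*Ntrk2* encodes TrkB, and its probe sets gave opposite differences between the strains. At its brightest, 1458622_PM_at, the mean log2 signal was 9.51 in SAMR1, against 9.71 in SAMP8 control and 9.85 with STEE. At 1435305_PM_at it was 8.24, 8.42 and 8.66, and at 1437560_PM_at it was 8.21, 8.46 and 8.54. These 3 probe sets rank the groups alike, with SAMR1 lowest and STEE-fed SAMP8 highest. At 1420838_PM_at the groups lay closer together, at 8.30, 8.41 and 8.43. The order was turned around at 1435196_PM_at, with 8.35 in SAMR1, against 8.09 in SAMP8 control and 8.06 with STEE. SAMR1 was highest also at 1446712_PM_at, with 6.20, 5.65 and 5.76. The remaining probe sets were dimmer, 1420837_PM_at at 4.40, 4.25 and 4.30 and 1444121_PM_at at 2.80, 2.88 and 2.84.

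In SAMP8 control minus SAMR1, 5 of the 8 *Ntrk2* probe sets were higher, by 0.08 to 0.25 on the log2 scale, and 3 were lower, by -0.15, -0.26 and -0.55. The mean over the 8 was -0.02 and their median was 0.10, so the sign depended on how the probe sets were combined. The lowest, at 1446712_PM_at, is 0.683 times the SAMR1 signal, and its absolute difference was larger than those of 98.2% of the probe sets above the array median. From the lowest to the highest of the 7 above the median the differences spanned 0.80. In the 103 genes with at least 6 probe sets above the median, the median span was 0.33 and the 90th percentile was 0.59. In STEE-fed SAMP8 minus SAMR1 the span was 0.86, beside a median of 0.35 and a 90th percentile of 0.63. Here *Ntrk2* had 3 probe sets at least 1.2-fold higher, at 0.33, 0.34 and 0.42, and 2 at least 1.2-fold lower, at -0.29 and -0.44. At least 1.2-fold differences in both directions were found in 3 of the 103 genes, 2.91%. *Ntrk2* is itself among these 3 and among the 103.

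Within SAMP8, the *Ntrk2* probe sets differed less from each other. STEE-fed SAMP8 exceeded SAMP8 control at 6 of the 8, with the largest difference of 0.24, or 1.18-fold, at 1435305_PM_at. At the brightest probe set it was 0.14, and at the others it ranged from -0.04 to 0.11. None reached 1.2-fold, and the mean over all 8 was 0.07. The 0.24 at 1435305_PM_at was larger than the absolute differences of 95.5% of the probe sets above the median. Of the 8 probe sets, 1420838_PM_at and 1420837_PM_at came from the same design cluster and the other 6 each from a cluster of their own. Which TrkB form each of them reads was not determined here, so a share of full-length and truncated TrkB was not derived from them.

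**Figure D3:**
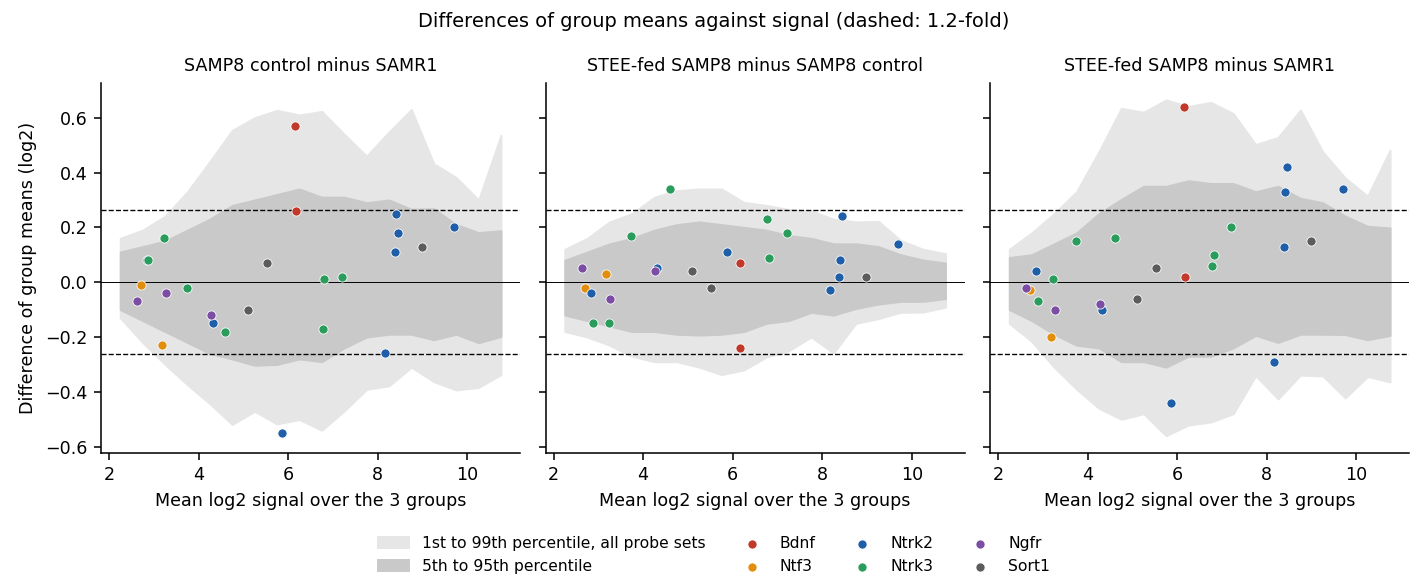
Difference of group means on the log2 scale (y axis) against the mean log2 signal over the 3 groups (x axis) for the 25 member probe sets, in SAMP8 control minus SAMR1 (left), STEE-fed SAMP8 minus SAMP8 control (middle) and STEE-fed SAMP8 minus SAMR1 (right), with dashed lines at 1.2-fold. Grey bands hold the 1st to 99th and 5th to 95th percentiles of all probe sets in bins of signal; points outside the inner band include the Bdnf point at 0.57 and the Ntrk2 point at -0.55 on the left, and the Ntrk3 point at 0.34 and the Ntrk2 point at 0.24 in the middle.

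*Ntrk3* encodes TrkC, and its 4 probe sets above the array median were all higher with STEE than in SAMP8 control. At 1433825_PM_at the mean log2 signal was 7.14 in SAMR1, against 7.16 in SAMP8 control and 7.34 with STEE, and at 1422329_PM_a_at it was 6.77, 6.78 and 6.87. In both, SAMR1 and SAMP8 control lay within 0.02 and STEE-fed SAMP8 lay above them. At 1455917_PM_at the values were 6.81, 6.64 and 6.87, and at 1425071_PM_s_at they were 4.61, 4.43 and 4.77, so that in these SAMP8 control was lowest. The 3 probe sets below the median did not follow a common order. They were 3.69, 3.67 and 3.84 at 1425070_PM_at, 3.17, 3.33 and 3.18 at 1426003_PM_at, and 2.88, 2.96 and 2.81 at 1443970_PM_at.

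With STEE, the differences at the 4 probe sets above the median were 0.18, 0.09, 0.23 and 0.34, a mean of 0.21. The last, 1.27-fold, was the single member difference past 1.2-fold in this comparison, and its absolute size was larger than that of 98.7% of the probe sets above the median. In the 761 genes with at least 4 such probe sets, all of a gene's were higher with STEE in 98, or 12.9%, and *Ntrk3* is itself among these 98. Of the dimmer *Ntrk3* probe sets, 1 was higher, by 0.17, and 2 were lower, by -0.15 each, which brought the mean over all 7 to 0.10. Between the strains, 2 of the 4 brighter probe sets differed by 0.02 or less and the others by -0.17 and -0.18. STEE-fed SAMP8 exceeded SAMR1 at all 4, by 0.06 to 0.20.

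*Ngfr* encodes p75, the low-affinity receptor of all neurotrophins, which in the adult brain is best known from cholinergic neurons of the basal forebrain. At 1454903_PM_at the mean log2 signal was 4.34 in SAMR1, against 4.22 in SAMP8 control and 4.26 with STEE, close to the array median. The other probe sets were dimmer, 1450177_PM_at at 3.32, 3.28 and 3.22 and 1421241_PM_at at 2.66, 2.59 and 2.64. All 3 were highest in SAMR1, by at most 0.12, and STEE-fed SAMP8 was within 0.06 of SAMP8 control at each of them. *Sort1* was bright at 1423362_PM_at, with 8.89, 9.02 and 9.04, a log2 difference of 0.13 between the strains and 0.02 with STEE. At 1450955_PM_s_at it was 5.48, 5.55 and 5.53 and at 1423363_PM_at it was 5.15, 5.05 and 5.09. The *Sort1* probe sets thus differed by no more than 0.04 in either direction with STEE.

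The relatives of sortilin were read from the same kind of list and lay above the array median. *Sorcs3*, which is found at postsynaptic sites, was 6.61 in SAMR1, against 6.86 in SAMP8 control and 6.90 with STEE, and its 0.29 in STEE-fed SAMP8 minus SAMR1 was past 1.2-fold. *Sorl1*, an intracellular sorting receptor, was 9.36, 9.5 and 9.58, and *Sorcs1* was 4.96, 5.01 and 5.17. *Sorcs2* alone of these was lower in SAMP8 control, at 5.33, 5.20 and 5.32.

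Genes of proteins that cut proneurotrophins or carry the Trk signal were mostly less than 1.2-fold apart. Of 13 genes of proneurotrophin cleavage and release, 1 was at least 1.2-fold higher in SAMP8 control than in SAMR1, against 3.30% of all genes. It was *Plat*, which encodes tissue plasminogen activator, a protease that starts the cleavage of proBDNF through plasmin, at 6.09 in SAMR1, against 6.58 in SAMP8 control and 6.26 with STEE. With STEE it was also the single gene of the list past 1.2-fold, at -0.32, against 0.959% of all genes lower by that limit. *Furin*, an intracellular convertase, was 5.15, 5.22 and 5.18.

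Among 19 Trk adapters and phosphatases, *Shc3*, a neuronal adapter, was 3.52, 3.86 and 3.85, past 1.2-fold in both comparisons with SAMR1 but below the array median, where signal was not told from background. *Grb2*, which links receptors to Ras, was higher by 0.30 in STEE-fed SAMP8 than in SAMR1 at its brightest probe set. Of its 2 probe sets, only 1 was higher in this comparison. In the PI3K arm, *Pik3r1*, the regulatory subunit of PI3K, was 8.44, 8.43 and 8.54 at its brightest probe set. Of 18 genes of the Ras and ERK arm, *Rps6ka3*, a kinase below ERK, was higher by 0.32 in SAMP8 control and by 0.33 in STEE-fed SAMP8 than in SAMR1, and *Crkl*, an adapter, differed by -0.29 with STEE. In the phospholipase C-gamma, calcium and CREB arm, 0 of 16 genes were 1.2-fold apart in any comparison. Of 22 genes of the p75 arm, 1 was, *Map3k5*, an apoptosis-related kinase, by 0.32 in STEE-fed SAMP8 minus SAMR1. Of all genes, 3.30% were at least 1.2-fold higher and 3.19% lower in SAMP8 control minus SAMR1. The shares were 0.988% and 0.959% in STEE-fed SAMP8 minus SAMP8 control, and 4.10% and 2.91% in STEE-fed SAMP8 minus SAMR1.

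The list of induced genes was then left out, which does not remove every activity-dependent gene, since *Npas4* and *Srf* stand in another list. The 133 remaining pathway genes held 6 that were at least 1.2-fold higher and 4 lower between the strains. These were 7.52% in all, against 3.30% higher and 3.19% lower of all genes. With STEE, 0 were higher and 4 lower, 3.01% in all, against 0.988% and 0.959%. Set against SAMR1, STEE-fed SAMP8 had 5 higher and 3 lower, 6.02% in all, against 4.10% and 2.91%. Apart from the list left out, the pathway thus lay close to the share of all genes between the strains and in STEE-fed SAMP8 minus SAMR1. Its median difference was 0.02, 0.00 and 0.02 in the 3 comparisons.

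**Figure D4:**
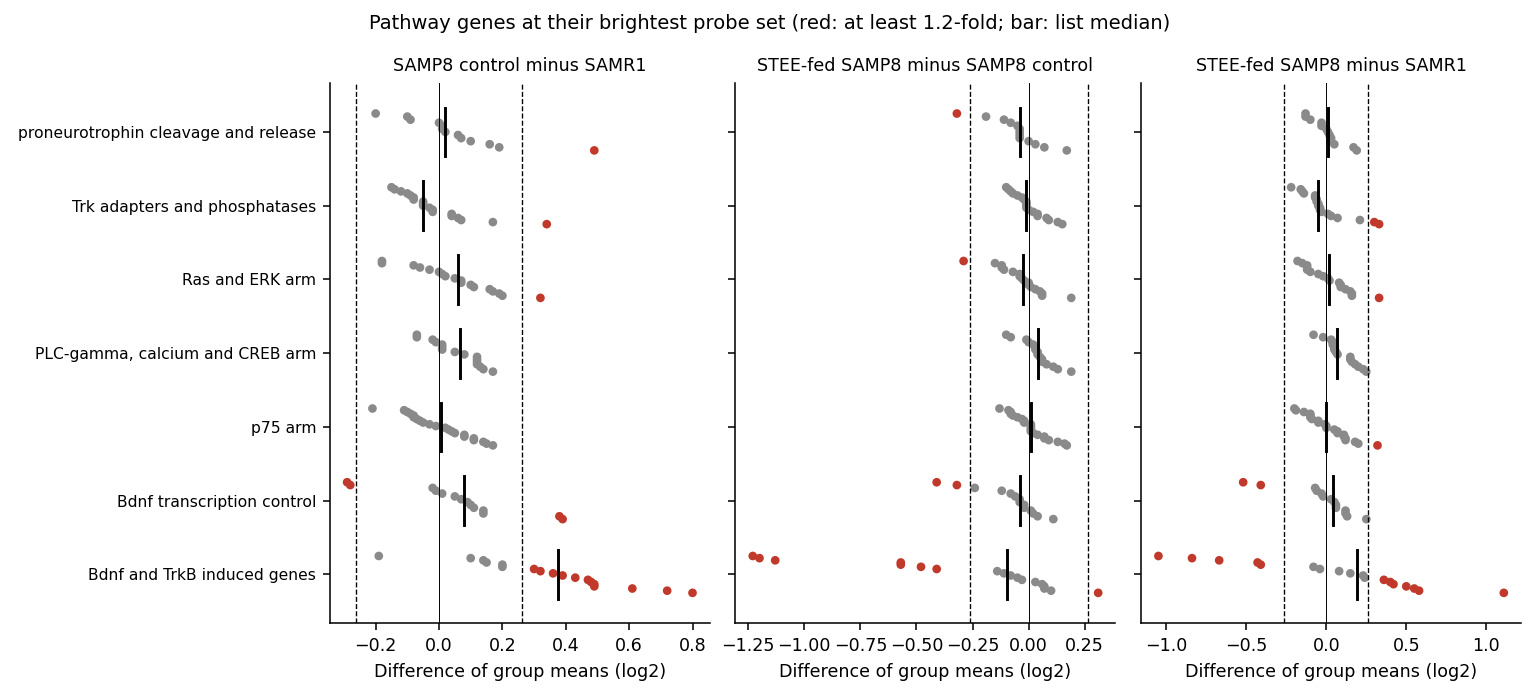
Difference of group means on the log2 scale (x axis) for the genes of 7 pathway lists at their brightest probe sets, by list (y axis), in the 3 comparisons; red points are at least 1.2-fold apart, black bars are list medians and the x scales differ between panels. The genes listed as induced, at the bottom, have a median of 0.38 on the left and -0.10 in the middle, and the other lists centre near 0.

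Markers of brain regions also differed between the strains. The dissected tissue carried cortical markers, with a mean log2 signal of 8.49, 8.55 and 8.65 in SAMR1, SAMP8 control and STEE-fed SAMP8 over 7 markers of excitatory cortical neurons. Of 7 striatal markers, 7 were at least 1.2-fold higher in SAMP8 control than in SAMR1, against 3.30% of all genes, with list means of 7.41, 8.04 and 8.08. Of 7 markers of hippocampus and dentate gyrus, 4 were at least 1.2-fold lower, against 3.19% of all genes, with list means of 4.54, 4.26 and 4.26. Of 8 oligodendrocyte markers, 5 were at least 1.2-fold lower, with list means of 9.33, 9.01 and 9.0. Of 8 choroid plexus markers 3 were lower, with list means of 4.30, 3.93 and 4.07. Both counts stand against the same 3.19% of all genes. The choroid plexus gene *Ttr* differed by -1.96, while *Kcne2* and *Otx2* differed by -0.30 and -0.32 at dim signals, and 6 of these 8 markers lay below the array median. Of 9 astrocyte markers 7 were lower, 1 of them past 1.2-fold, *Fgfr3* at -0.33, with list means of 8.99, 8.89 and 8.88. Of 6 interneuron markers 5 were higher and 1 lower in SAMP8 control than in SAMR1, with list means of 8.76, 9.0 and 9.0. Past 1.2-fold was 1 of them, *Vip* at 0.87, and *Sst* is also in the list of induced genes. These shifts lay between the same groups as the differences of *Bdnf*, *Ntrk2* and the induced genes. Their part in those differences was not tested. With STEE, 0 of the striatal, hippocampal and oligodendrocyte markers were 1.2-fold apart from SAMP8 control and 0 of the astrocyte markers were, while 1 of 8 choroid plexus markers was, *Ttr* at 1.09. In this comparison 0.988% of all genes were at least 1.2-fold higher and 0.959% lower. Of the 7 excitatory neuron markers 6 were higher with STEE, 1 of them past 1.2-fold. It was *Tbr1*, a transcription factor of deep cortical layers, at 8.12, 8.28 and 8.57. The list of excitatory neuron markers had a median difference of 0.09 in this comparison, and it was not alone. Of 5 markers of oligodendrocyte precursors 4 were higher, with a median of 0.13. Of 7 markers of meninges and fibroblasts 6 were higher, with a median of 0.09. These lists were higher in the same comparison as the *Ntrk3* and *Ntrk2* probe sets, and their part in those differences was not tested. The 4 markers of basal forebrain cholinergic neurons had list means of 3.56, 3.54 and 3.52, and 3 of them lay below the array median.

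The largest range over the groups among members above the median, 0.64, was that of *Bdnf* at 1422168_PM_a_at. Of 38128 other probe sets with a single symbol, 34 followed it within a distance of 0.05, taken as the Euclidean distance between the 3 group means after centring. The nearest were those of *Dpp7*, *4832406H04Rik* and *Bre*, at 0.008, 0.014 and 0.014. Likeness over 3 group means says little about any of these genes.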

How the data were processed

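Cortical RNA from 6 male mice, 2 in each of 3 groups, was measured on Affymetrix mouse array strips. The authors ran RMA in Expression Console and compared the groups with Transcriptome Analysis Console. Their deposited log2 values are bi-weight averages of a group, to 2 decimals, for 45077 probe sets, which hide the spread between mice and leave a rounding of 0.01 on a difference. Columns of the authors' linear fold changes, ANOVA p-values and FDR p-values were not used, and values per array were not analysed here, so no test was made.

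Differences of means were counted past 1.2-fold, beside the share of all probe sets past it. Listed genes were read at their brightest probe set. Members, lists and limits were chosen with earlier results of these data known. All members were named, with up to 3 genes past 1.2-fold and with the largest difference per pathway list and comparison, and some of these are not reported here. *Creb1*, *Npas4*, *Furin*, *Pik3r1*, *Ntf5*, all marker genes and the relatives of sortilin were named after their values were seen, and the comparison of probe sets within genes was added then. Counting was tested on simulated data with known shifts. Promoter windows came from RefSeq (GRCm38.p6), and windows of 4 of the 6 members were used here. Python 3.11.15, numpy 2.4.6, pandas 2.3.3 and matplotlib 3.10.9 were used.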

Additional observations from a re-analysis of the deposited data

How the results depend on the processing

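The counts of member probe sets depended on the fold limit. From 2 of 25 at 1.2-fold in SAMP8 control minus SAMR1, the count went to 12 at 1.1-fold and 0 at 1.5-fold. From 1 in STEE-fed SAMP8 minus SAMP8 control it went to 9 and 0, and from 6 in STEE-fed SAMP8 minus SAMR1 to 11 and 1. Lowering the limit by the rounding of 0.01, an alternative chosen after seeing the data, gave 4 in SAMP8 control minus SAMR1 and left the other counts at 1 and 6. Centring each group on its median gave 3, 1 and 6. Leaving out probe sets at or below the array median, requiring a single symbol, or taking the SAMP8 control mean from the other table gave 2, 1 and 6 each.

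For the 18 gene differences, 6 genes in 3 comparisons, the mean over all probe sets in place of the brightest changed the sign of 2 and the median over all probe sets that of 0. The largest move was 0.31. The mean over probe sets above the array median, which could be had for 15 of them, changed the sign of 2.

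No paired analysis was possible because the tables hold group means. Leaving out each replicate was not run for the same reason, no sample was examined for standing apart, and no spread between mice stands beside any difference. The number of arrays limits the precision, and signals at or below the array median were not told from background.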
